A study of Drosophila melanogaster
Gallus gallus with 8 samples.

Results

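The tallest DRIP-seq peaks of each genotype, measured against the other peaks of the same chromosome, were taken from the peak lists of wild type and *primpol* DT40 cells, a B-cell line derived from chicken. Height is the fragment pileup averaged over a peak. On chromosomes 1 to 15 and Z, each height was divided by the median height of the peaks on that chromosome in the same list, and this quotient is called relative height. The 300 peaks with the highest relative heights formed the set of each list, with ties ordered by chromosome and start. They were 300 of 38425 wild type peaks on these chromosomes (0.781%) and 300 of 45664 *primpol* peaks (0.657%), and together 600 of the 89913 peaks of both lists. Members were chosen by their height, so their heights, ranks and every measure from the same list are given as descriptions with no test.

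DNA:RNA hybrids form where a transcript pairs with its template strand behind RNA polymerase, and with the displaced strand they make an R-loop. The S9.6 antibody binds such hybrids, and DRIP-seq sequences the DNA that it recovers, so that a peak marks a stretch richer in recovered fragments than the surrounding input. PrimPol is a primase and polymerase that restarts DNA synthesis downstream of a block in the template, and *primpol* cells lack it. The height of a broad peak is an average over its length and does not give the number of hybrids in a cell.

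The study held 8 libraries in 6 groups. There were 2 DRIP libraries of wild type cells and 2 of *primpol* cells, with no drug named for either, with 1 input library and 1 DRIP library treated with RNase H, which degrades the RNA of a hybrid, for each genotype. All cells were mixed with *Drosophila* S2 cells before the pull-down. DNA was cut with a mix of restriction enzymes before the antibody was added, so recovered fragments reach to the nearest cut sites and peak width is not the length of a hybrid. Both DRIP replicates of a genotype lie behind a single list, so the values below have no error over replicates and the genotypes are compared without p-values. DRIP libraries treated with RNase H entered neither list and are not analysed here. After duplicates were removed the lists rested on 46425192 wild type and 44735404 *primpol* DRIP tags, and on 23107894 and 30302032 input tags. Heights were scaled to each genotype's input and carry no spike-in scale. A relative height carries no constant library scale, but its median depends on which peaks were called in each list. Genes and sequence at the peaks are not analysed here.

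Both sets consisted of a short steep top and a long shallow slope. Relative heights in the wild type set ran from 1.46 to 5.59 with a median of 1.55. In the *primpol* set they ran from 1.43 to 4.77 with a median of 1.498. Only 11 wild type and 14 *primpol* members stood at 2 or more times the median of their chromosome, and 3 and 4 stood at 3 or more times. The peaks at the limit were nearly equal. In wild type the last member, at chr8:24063115-24064656, and the first peak left out, at chr9:22058825-22060001, had the same relative height of 1.46, and their order came from the chromosome number. The 3 last wild type members ran from 1.46136 to 1.46058, and the 3 peaks behind them from 1.46058 to 1.45978. In *primpol* the 3 last members ran from 1.43116 to 1.43099, and the next 3 peaks from 1.43041 to 1.42889.

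**Figure D1:**
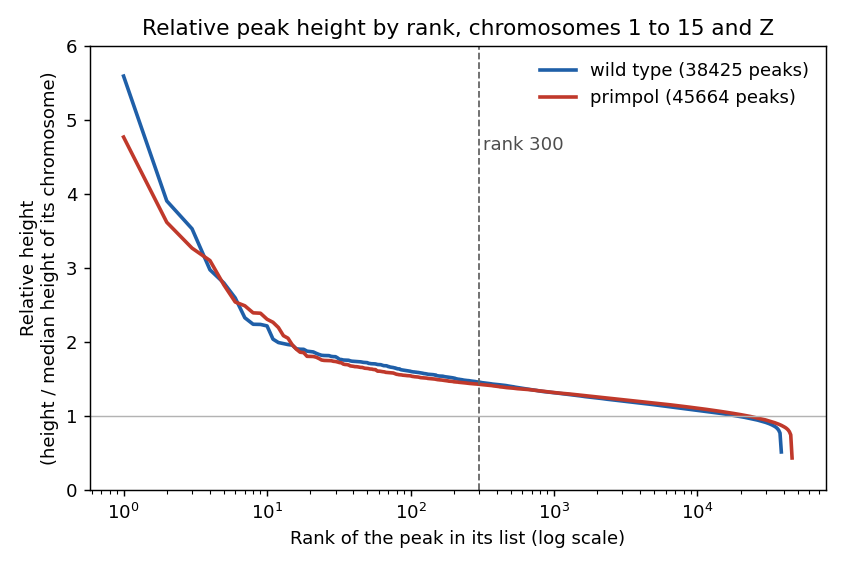
Relative height (height over the median height of the chromosome) of every peak against its rank on a log scale, for the wild type (blue) and *primpol* (red) lists; the dashed line marks rank 300. The curves fall from 5.59 and 4.77 at rank 1 to 1.46 and 1.43 at rank 300.

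The same places led both lists. The highest peak of either list lay on chromosome 5, at chr5:36053491-36055044 in wild type and chr5:36053498-36055066 in *primpol*. Its height was 75.8 in wild type, 5.59 times the median of chromosome 5, and 82.9 in *primpol*, 4.77 times the median. The 3 regions that followed it were also the same in both lists, in another order. On chromosome Z, chrZ:66275684-66277430 had a relative height of 3.91 in wild type (rank 2) and 3.27 in *primpol* (rank 3). On chromosome 2, chr2:110603632-110604929 had 3.53 in wild type (rank 3) and 3.10 in *primpol* (rank 4). On chromosome 9, chr9:3959985-3961176 had 2.98 in wild type (rank 4) and 3.62 in *primpol* (rank 2). These 4 peaks were between 1177 and 1798 bp wide in either list.

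Of the 10 highest wild type peaks, 8 were members of both sets, and of the 10 highest *primpol* peaks all 10 were. A second peak on chromosome 2, chr2:110598149-110599579, lay 4052 bp from the first and had a relative height of 2.80 in wild type and 2.40 in *primpol*. The wild type peak chr5:51594629-51595192 had 2.60 and its *primpol* partner 2.27. At chr12:13850417-13851608 the values were 2.33 and 2.49, and at chr3:55406126-55406820 they were 2.22 and 1.96. Both wild type leaders outside the *primpol* set lay on chromosome 1. The 349 bp peak chr1:106242674-106243022 had a relative height of 2.24 in wild type and 1.35 in *primpol*, where it ranked 701. The 872 bp peak chr1:77286867-77287738 also had 2.24, and overlapped a *primpol* peak of 3674 bp with a relative height of 1.21 and rank 3574.

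Among the 10 highest *primpol* peaks, 4 lay on chromosome 1 and ranked lower in wild type. The *primpol* peak chr1:152856549-152858320 had a relative height of 2.77 against 1.82 in wild type, where it ranked 25. At chr1:192611381-192613187 the values were 2.54 and 1.57 (rank 126 in wild type), and at chr1:17710045-17712464 they were 2.39 and 1.85 (rank 22). The last of them, chr1:21025237-21028374, had 2.31 in *primpol* and 2.04 in wild type (rank 11). The first 3 of these were also the members of both sets whose relative height rose most from wild type to *primpol*, by 1.52-fold, 1.61-fold and 1.29-fold. Fold enrichment, which divides height by the local background with 1 added to each, was not higher at all of them. It was 5.05 in *primpol* and 4.04 in wild type at the first and 4.62 and 4.17 at the second, but 4.95 and 7.03 at the third. The members of both sets with the largest falls lay at chr5:16906229-16906814 (1.88 in wild type, 1.44 in *primpol*), chr3:48254241-48255158 (1.90 and 1.49) and chr5:26961743-26964129 (1.868 and 1.503).

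A minority of either set was shared. A member of the *primpol* set overlapped 105 of the 300 wild type members by at least 1 bp, which is 35.0% (95% Wilson interval 29.8% to 40.6%, counting error only), while 0.768% of all wild type peaks on these chromosomes did so. A wild type member overlapped 104 *primpol* members, 34.7% (29.5% to 40.2%), against 0.618% of all *primpol* peaks. Of the 50 highest peaks, 29 in wild type and 44 in *primpol* overlapped a member of the other set of 300. With sets of equal size taken from both lists the shared part hardly varied, at 37.0% and 36.0% for the 100 highest peaks of each list and 38.3% and 37.9% for the 1000 highest.

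Most members overlapped a called peak of the other genotype. Some peak of the *primpol* list overlapped 282 wild type members (94.0%, against 70.4% of all wild type peaks), and a wild type peak overlapped 286 *primpol* members (95.3%, against 57.3%). Wider peaks had a partner more often, and *primpol* members were wider than other *primpol* peaks. Of all *primpol* peaks, 67.6% of those under 500 bp had no partner, but 0.135% of those of at least 5 kb. In wild type these shares were 51.1% and 0%. Under 500 bp, 15 of 83 wild type and 10 of 52 *primpol* members had none. When partners had to share 50% or more of the length of each peak, 77.3% of wild type and 82.3% of *primpol* members had a partner. Most members of a single set thus had a partner of lower rank in the other list. The highest partner of a wild type member was among the 300 highest for 105 members, below them down to rank 600 for 38, from there to rank 1500 for 42, from there to rank 5000 for 40 and beyond rank 5000 for 57. For *primpol* members the counts were 104, 49, 75, 38 and 20. The median rank of the partner, for members whose partner was outside the other set, was 2007 for the 177 wild type members and 893 for the 182 *primpol* members.

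Partners were raised peaks in their own list too. The relative height of the highest partner had a median of 1.37 for wild type members (range 0.82 to 4.77) and 1.39 for *primpol* members (0.853 to 5.59). It lay above the median of its chromosome for 271 of 282 wild type members, where 65.9% of all wild type peaks with a partner had such a partner, and for 282 of 286 *primpol* members, against 58.5%.

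**Figure D2:**
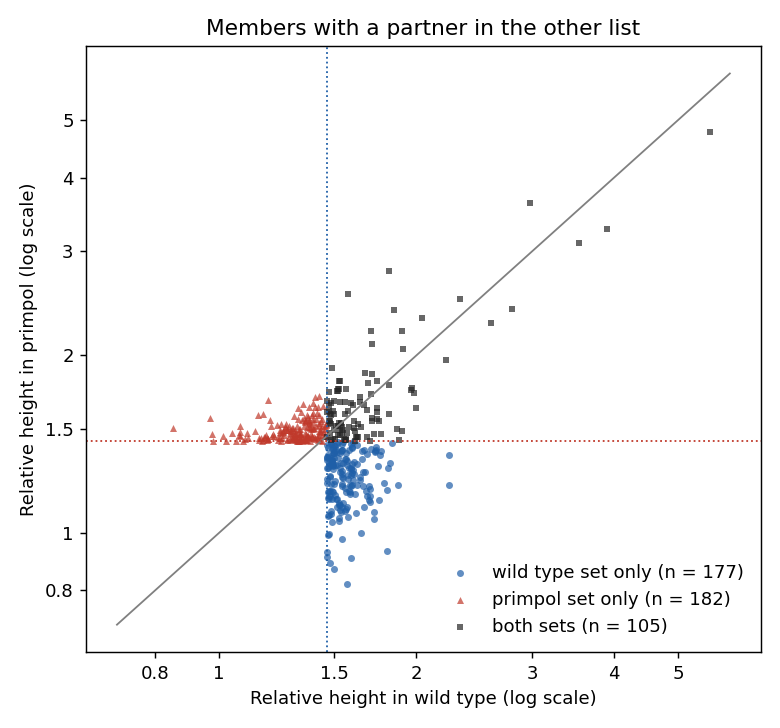
Relative height in wild type (x) and in *primpol* (y), both on log scales, for each member with a partner; the 105 members of both sets are black, 177 members of the wild type set alone blue and 182 of the *primpol* set alone red. The grey diagonal marks equal values and the dotted lines the limits of 1.46 and 1.43; the 4 highest points are black and lie near the diagonal.

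Relative heights were compared in pairs where each peak overlapped the other alone. Over all 20918 such pairs the ratio of relative heights, *primpol* over wild type, had a median of 1.02 with quartiles of 0.943 and 1.09. Of these pairs 2.6% were at least 25% higher in *primpol* and 3.27% at least 20% lower. In the 99 pairs of members of both sets the median ratio was 0.991, with 4 pairs at least 25% higher in *primpol* and 2 at least 20% lower. In the 261 pairs with a wild type member the median was 0.873, with 82 pairs lower and 4 higher by these limits. In the 258 pairs with a *primpol* member it was 1.09, with 19 higher and 2 lower. At a limit of 1.5-fold, 0.0621% of all pairs were higher and 0.206% lower in *primpol*, against 2 and 17 of the pairs with a wild type member and 5 and 0 of those with a *primpol* member. The direction in the last 2 groups follows from choosing peaks that were high in 1 of the lists.

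The 2 sets differed in the width of their peaks. Wild type members were little wider than other peaks, with a median of 921 bp (quartiles 458 and 2006 bp) against 804 bp for the other wild type peaks. *primpol* members had a median of 2092 bp (quartiles 823 and 5749 bp) against 842 bp for the other *primpol* peaks. The median of the *primpol* set was thus 2.27 times that of the wild type set, while that of the other peaks was 1.05 times. Peaks of at least 5 kb made up 24 wild type members (8.0%, against 2.94% of the wild type list) and 87 *primpol* members (29.0%, against 3.25%). Peaks under 500 bp made up 83 wild type members (27.7%, against 29.9%) and 52 *primpol* members (17.3%, against 28.1%). This order of the sets depended on the measure. When peaks were ranked by fold enrichment in the same way, the median width was 878 bp in the wild type set and 558 bp in the *primpol* set.

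**Figure D3:**
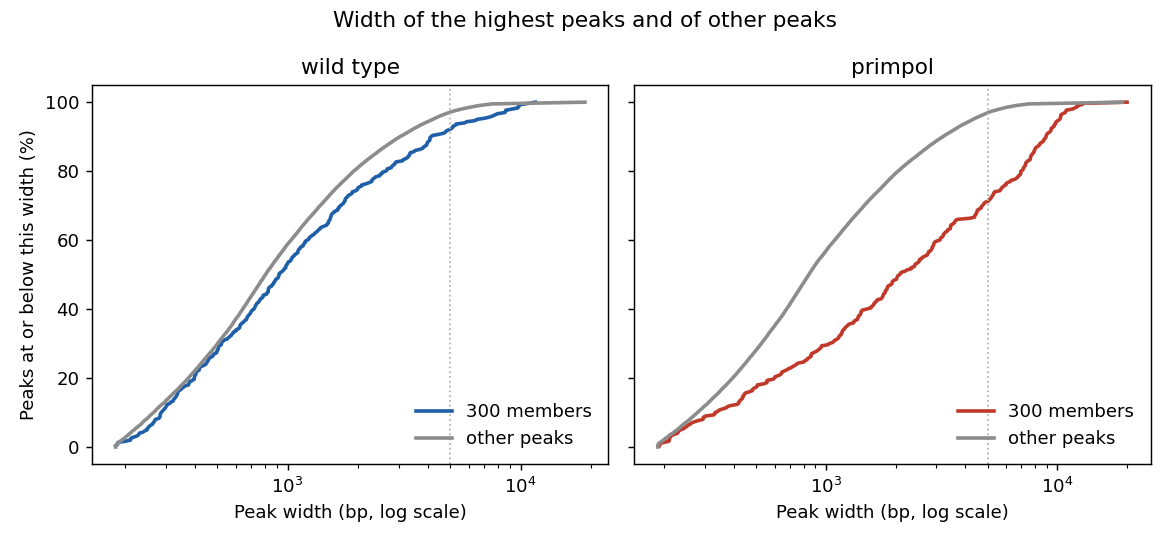
Cumulative share of peaks (%) against peak width (bp, log scale) for the 300 members (colour) and the other peaks (grey) of the wild type and *primpol* lists; the dotted line marks 5 kb. The members' curve lies close to the grey one in wild type and far to its right in *primpol*, where 29.0% of members reach 5 kb.

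Wide *primpol* members that matched a single wild type peak were typically about as wide in wild type. Of the 87 members of at least 5 kb, 81 formed a 1-to-1 pair, with a median width ratio of 1.01, *primpol* over wild type. In these 81 pairs the median relative height was 1.51 in *primpol* and 1.37 in wild type, and the median rank in wild type was 617. They were chosen by height in *primpol*, which favours a lower value in wild type. In the 22 pairs with a wild type member of at least 5 kb the medians were 1.59 in *primpol* and 1.52 in wild type. In all, 23 of the 87 were members of both sets. Of the 24 wild type members of at least 5 kb, 21 were in both sets (87.5%, Wilson interval 69.0% to 95.7%), and of the 83 under 500 bp, 15 were (18.1%, 11.3% to 27.7%). In the *primpol* set the share in both was 26.4% (18.3% to 36.6%) at 5 kb or more and 25% (15.2% to 38.2%) under 500 bp, with a highest value of 45.6% from 1000 to below 2000 bp. At 5 kb or more, similar numbers of shared members, 21 and 23, were set against 24 and 87. Members were 5.87% of all *primpol* peaks of at least 5 kb and 0.405% of those under 500 bp, and 2.13% and 0.723% in wild type. The share of all peaks of each width that overlapped a member of the other set was not computed.

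The *primpol* peak had the larger width in 60.3% of all pairs, and in 154 of the 258 pairs with a *primpol* member. The ratio of relative heights also differed by width over all 1-to-1 pairs, members and other peaks together. By wild type width, the median ratio of relative heights was 0.991 in 4394 pairs under 500 bp, 1.01 in 5665 from 500 to below 1000 bp, 1.02 in 5638 from 1000 to below 2000 bp, 1.04 in 4313 from 2000 to below 5000 bp and 1.08 in 908 of at least 5 kb. The *primpol* value was the higher one in 47.4% of the narrowest and 86.9% of the widest class. The local input background moved in the same direction. This background, lambda, is the fragment count expected from the input, and relative lambda is its quotient over the median of the chromosome. In the widest class the median relative lambda was 1.04 in wild type and 1.13 in *primpol*, and in the narrowest it was 0.995 and 0.976. The corresponding ratio of fold enrichments, each divided by its chromosome median, was 0.989 in the widest class and 1.01 in the narrowest. The part of the input background in the width of the *primpol* set was not tested.

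The widest wild type members were chr2:70396330-70407911 (11582 bp), chr2:144875826-144886702 (10877 bp) and chr8:7336656-7346714 (10059 bp). Each overlapped a single *primpol* peak of like width, between 10351 and 11621 bp, and all 3 partners were in the *primpol* set. The widest *primpol* member, chr1:83144352-83164411, spanned 20060 bp and overlapped 3 wild type peaks, the highest of them 15320 bp wide with a relative height of 1.18. It was followed by chr1:157936997-157949975 (12979 bp) and chr3:86639148-86651995 (12848 bp), whose wild type partners of 13010 and 12750 bp ranked 632 and 690. At the other end, the narrowest members had 183, 186 and 187 bp in wild type and 190, 191 and 192 bp in *primpol*. They lay on chromosomes 1, Z and 1 in wild type and on chromosomes 1, 1 and 10 in *primpol*, and they were close to the fragment lengths of 183 and 187 bp used in peak calling.

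The local background at members was above the median of their chromosome in both genotypes. Median relative lambda was 1.26 for wild type members (range 0.533 to 2.45) and 1.27 for *primpol* members (0.463 to 2.93), against 0.999 for the other peaks of either list. It exceeded 1 by at least 25% in 155 wild type members (51.7%, against 5.83% of all wild type peaks) and in 164 *primpol* members (54.7%, against 6.97%). This held for sets chosen by height. In sets chosen by fold enrichment the median was 0.770 in wild type and 0.739 in *primpol*, and in sets chosen by the −log10 q-value 1.02 and 0.998. Relative height and relative lambda had a Spearman correlation of 0.737 over all 38425 wild type peaks and 0.806 over all 45664 *primpol* peaks. Over the 300 members of each set it was 0.138 and −0.0751. Members were cut from the lists by relative height, which narrows its range and by itself lowers a correlation. The values within the sets therefore do not show whether the 2 measures are related among the tallest peaks. Peaks of a list share library and depth, and lambda was computed from height, so the 2 measures are not independent. Fold enrichment and the −log10 q-value both use height, so choosing by height favours high values of each. Members had higher fold enrichment over the local background than other peaks. Their median fold enrichment was 3.21 against 2.55 in wild type and 2.75 against 2.29 in *primpol*. The fold enrichment of 24 members in each set was nevertheless below the median of its chromosome. The −log10 q-value given by the peak caller was at least 5 in 61 wild type members, against 0.206% of the list, and in 81 *primpol* members, against 0.258%.

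**Figure D4:**
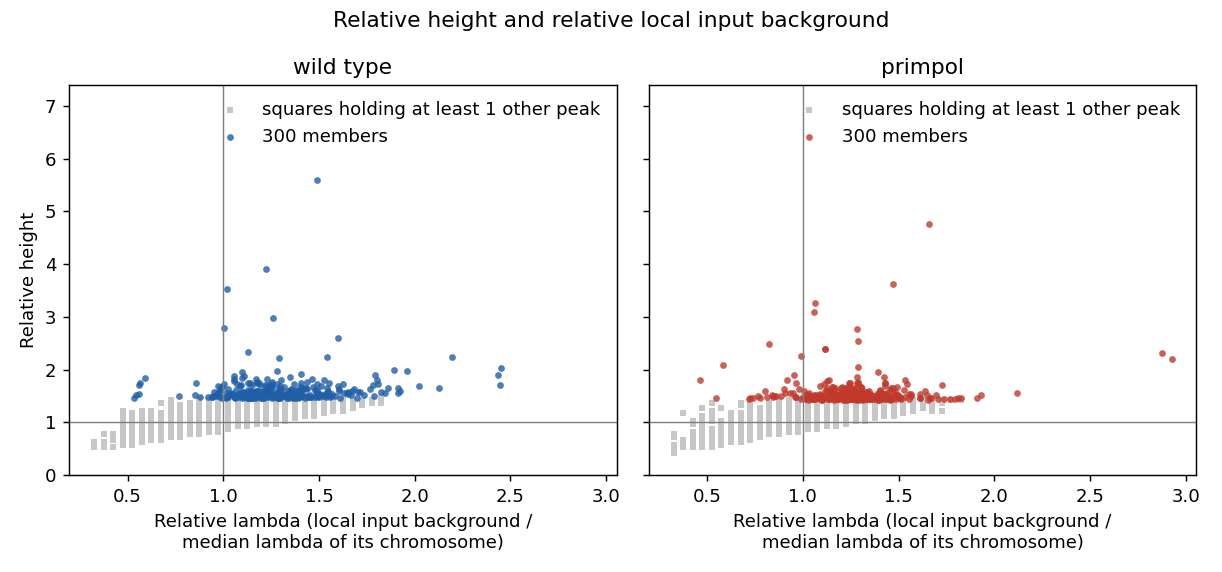
Relative height against relative lambda (local input background over the chromosome median) for the 300 members (coloured points) and the other peaks (grey squares, each at least 1 peak) of the wild type and *primpol* lists. Most members lie right of 1, with medians of 1.26 and 1.27, and a few in each panel stand beyond 2.

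The members with the highest background lay side by side on chromosome 1. In wild type 3 members fell within chr1:21019043-21028531, with a median relative lambda of 2.44 and relative heights of 1.71 to 2.04. In *primpol* 3 members fell within chr1:21014707-21028374, with relative lambda between 2.12 and 2.93 and relative heights of 1.56 to 2.31. Their fold enrichment was low, between 1.99 and 2.36 in wild type and between 1.82 and 2.00 in *primpol*. The highest *primpol* peak there, chr1:21025237-21028374, ranked 10 by relative height and 45488 by relative fold enrichment. Relative lambda of 2 or more was found in 6 wild type and 3 *primpol* members, and in 0 of the other peaks of either list. A called peak must exceed its background, and the lowest fold enrichment of any *primpol* peak was 1.74. A peak with such a lambda is thus also high, so the 0 largely follows from the choice by height.

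Members were spread over nearly all chromosomes. Chromosome 2 held 73 wild type members and chromosome 1 held 72, 24.3% and 24.0% of the set, against 24.3% of all wild type peaks on each of them. In *primpol*, chromosome 1 held 91 members (30.3%, against 24.9% of peaks) and chromosome 2 held 78 (26.0%, against 22.2%). Which chromosome led depended on the measure and the set size. In *primpol*, chromosome 1 led by fold enrichment (32.3%), but chromosome 2 by height minus lambda (32.7%) and by −log10 q-value (31.0%). Among the 100 and the 1000 highest peaks, chromosome 1 led in wild type (27.0% and 25.7%) and in *primpol* (35.0% and 29.0%). Chromosomes 3 and 4 held smaller shares of both sets than of the lists. Chromosome 3 held 10.3% of wild type members against 13.5% of peaks and 9.67% of *primpol* members against 13.5%, and chromosome 4 held 6.67% against 10.2% and 7.67% against 10.5%. Among smaller chromosomes, the share of peaks that were members reached 1.80% on chromosome 9 (13 members) and 1.79% on chromosome 14 (7 members) in wild type, but 0.280% on chromosome 15 (1 member). In *primpol* chromosome 9 held 4 members, chromosome 14 held 3 and chromosome 15 held 0. On chromosome Z 14 wild type members were 1.13% of 1235 peaks and 12 *primpol* members 0.470% of 2553 peaks, so the shares differed mainly by the number of called peaks. There 7 members of the wild type set were in both sets. Of the 87 *primpol* members of at least 5 kb, 23 lay on chromosome 1 (26.4%, against 24.3% of all *primpol* peaks of that width) and 32 on chromosome 2 (36.8%, against 25.8%). On chromosome 2 the median *primpol* member was 4056 bp wide, against 1431 bp for wild type members of chromosome 2.

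**Figure D5:**
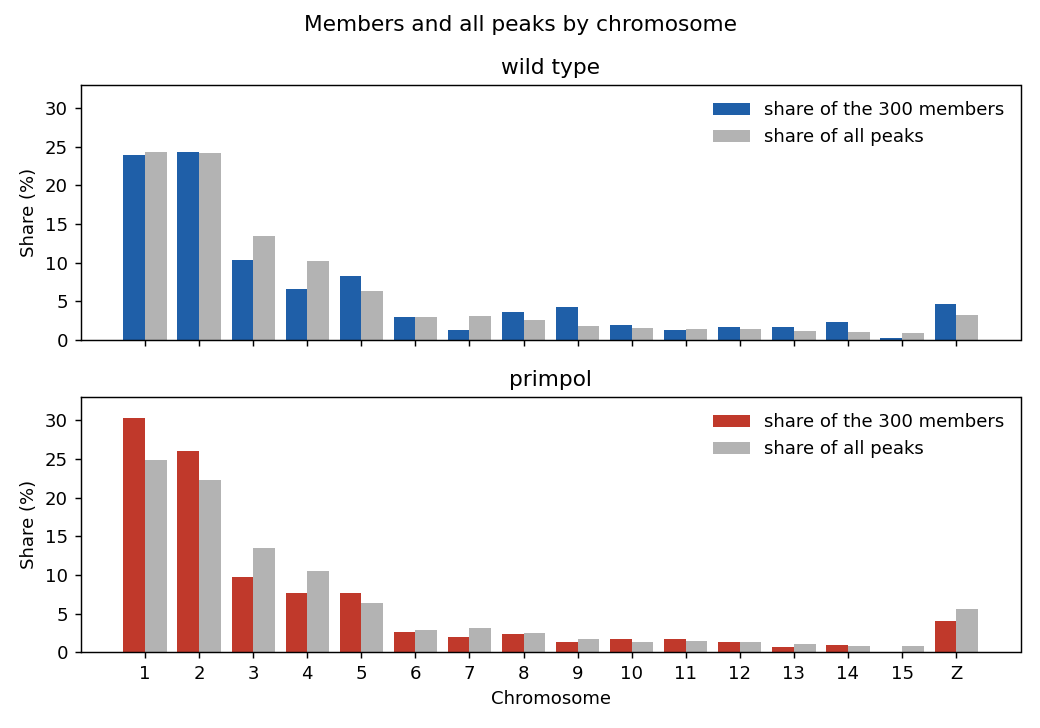
Share (%) of the 300 members (colour) and of all peaks (grey) on each of chromosomes 1 to 15 and Z, for the wild type and *primpol* lists. The 2 shares are nearly equal on wild type chromosomes 1 and 2, and in *primpol* 30.3% of members lie on chromosome 1 against 24.9% of peaks.

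The division by the chromosome median shaped this spread. Median height was 17.2 on chromosome 2 and 9.46 on chromosome Z in wild type, and 22.6 and 11.2 in *primpol*, so that a peak needed a height of 25.1 on chromosome 2 but 13.8 on chromosome Z to enter the wild type set, and 32.4 and 15.97 to enter the *primpol* set. Ranked by height alone, chromosome 2 would hold 84.3% of the 300 highest wild type peaks and 93.3% of the *primpol* ones. Of the 100 windows of 10 Mb that held a peak, 88 contained a wild type member and 86 a *primpol* member. The fullest windows were 40 to 50 Mb on chromosome 2 in wild type, with 11 members among 534 peaks, and 20 to 30 Mb on chromosome 2 in *primpol*, with 13 among 766. Within 1 Mb of the first or last peak of a chromosome lay 6 wild type members, 2.0% of the set (Wilson interval 0.92% to 4.29%, against 1.51% of all wild type peaks), and 9 *primpol* members, 3.0% (1.59% to 5.602%, against 1.36%).

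Most members stood alone when neighbours were sought within 100 kb, but not within 1 Mb, where 56.7% of wild type and 53.7% of *primpol* members had one. No such share was computed for sets of other peaks. Another member of the same set lay within 100 kb of 65 wild type members and of 65 *primpol* members, 21.7% of each set. These formed 30 runs in wild type, of which 26 were pairs, and 28 runs in *primpol*, of which 21 were pairs. The longest had 4 members. In wild type it was chr1:49224752-49373717, with members of 341 to 1256 bp and relative heights of 1.46 to 1.69, 1 of them in both sets. In *primpol* these were chr2:27126189-27270073, with relative heights of 1.46 to 1.86 and 1 member in both sets, and chr1:97305580-97458948, with 1.44 to 1.66 and 0 in both sets. Besides the trio at 21 Mb of chromosome 1, wild type runs of 3 members were chr2:61868773-61928622, with 0 in both sets, and chr1:91898840-91922032, with 1 in both sets. Median distance to the nearest other member was 687 kb in wild type and 795 kb in *primpol*.

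Neighbouring peaks of any height were somewhat further from wild type members than from peaks in general, and somewhat closer to *primpol* members. The median distance to the nearest peak was 4.92 kb for wild type members and 3.99 kb for all wild type peaks, and 2.70 kb for *primpol* members and 3.51 kb for all *primpol* peaks. The nearest peak was within 1 kb for 38 wild type members (12.7%, against 17.1%) and 55 *primpol* members (18.3%, against 17.4%). Distances to a member of the other set were also taken for members outside both sets. Such a neighbour was within 10 kb for 6 of the wild type and 7 of the *primpol* ones, and within 100 kb for 30 and 28. The share of all peaks with such a neighbour was not computed, so these counts do not show whether the sets lie near each other. Members of both sets joined at 100 kb made 416 loci, of which 112 held members of both sets, 153 wild type members alone and 151 *primpol* members alone.

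A small remainder had no peak at all in the other list, 18 wild type and 14 *primpol* members. Over the whole lists only 70.4% of wild type and 57.3% of *primpol* peaks had a partner. Members without a partner were narrow, with a median width of 293 bp for wild type and 352 bp for *primpol*, and 15 and 10 of them were under 500 bp. This was no trait of members alone, since 51.1% of all wild type and 67.6% of all *primpol* peaks under 500 bp had no partner. The relative lambda of the members without a partner had medians of 1.49 and 1.34, above those of the whole sets. The highest in wild type were chr5:48484323-48484575 (253 bp, relative height 1.76), chr1:44151529-44151919 (391 bp, 1.73) and chr1:91574820-91575074 (255 bp, 1.61). In *primpol* the highest was also the widest of its kind, chrZ:42701714-42706114, with 4401 bp, a relative height of 1.69 and a fold enrichment of 3.75. It was followed by chr1:21014707-21015324 (618 bp, 1.56), next to the high-background peaks described above, and chr1:180087507-180087697 (191 bp, 1.52). A region with no peak in a list may still hold signal below the calling threshold, which the lists do not record.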

How the data were processed

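DRIP-seq and input reads were trimmed by the authors with Trim Galore 0.4.4 and aligned with Bowtie2 2.2.6 to Galgal5, and a list of broad peaks was called by the authors for each genotype with MACS2 2.1.1.20160309. In the deposited files, signal is the mean pileup (height), fold enrichment is height plus 1 as a ratio to lambda plus 1, and the −log10 q-value is a mean over the peak. Lambda was recovered from height and fold enrichment. Peaks were paired where they overlapped by at least 1 bp. The functions were tested on simulated data, where 300 of 300 planted members and 120 of 120 planted shared members of 3200 peaks were recovered. Python 3.11.15, numpy 2.4.6, pandas 2.3.3, scipy 1.17.1 and matplotlib 3.10.9 were used. Members and lists were chosen with earlier results of these data known. Regions named were the 10 highest of each set, the 3 highest without a partner, the 3 largest rises and falls among pairs of members, the 3 fullest runs, the 3 widest and narrowest, and the 3 peaks on either side of the limit. A wild type run tied in size with the last of the fullest runs was named too. The peaks of high lambda were named after their values were seen. Alternatives covered the measure, set size, overlap, chromosomes, merging and filters.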

Additional observations from a re-analysis of the deposited data

How the results depend on the processing

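Under the alternatives, 80 values of the set summaries stayed within the limits around the reported value, 38 moved out of them and 4 changed direction. These limits were 95% counting intervals. For the ratio of median widths they combined the limits of both medians (1.63 to 3.38) and are not a 95% interval. With the *primpol* set of 357 peaks below, the wild type set was unchanged, so most of its values could not move. For the leading chromosome only the share was compared, not which chromosome it was. The shared part lay between 31.3% and 45.3% of the wild type set and between 31.3% and 44.0% of the *primpol* set, the highest values being those without division by the chromosome median. With an overlap of at least 50% of both peaks, 77.3% and 82.3% of members had a partner (wild type, then *primpol*, as below). Ranking by fold enrichment turned the ratio of median widths, *primpol* over wild type, from 2.27 to 0.636, with a *primpol* median of 558 bp, and median relative lambda fell from above to below 1, to 0.770 and 0.739. It put 31.0% of the wild type set on chromosome 2 and kept 85 and 79 of the members. By −log10 q-value the width ratio was 1.33, widths 1136 and 1514 bp, and relative lambda 1.02 and, below 1, 0.998. Chromosome 2 then held 30.7% of the wild type set and led the *primpol* set with 31.0%. By height minus lambda the wild type width was 1153 bp and relative lambda 1.14 and 1.13. Chromosome 2 then held 30.3% of the wild type set and led the *primpol* set with 32.7%. Without division by the chromosome median, 84.3% and 93.3% of members lay on chromosome 2, widths were 1327 and 3334 bp, and 52.7% and 54.0% of members lay in runs. With peaks within 1 kb merged, widths were 1088 and 2901 bp, and without peaks under 300 bp the wild type width was 1110 bp. Among the 100 highest peaks, 7.0% and 15% lay in runs, wild type relative lambda was 1.29, and partners had relative heights of 1.46 and 1.52. Among the 1000 highest, 48.9% and 41.8% lay in runs, the wild type width was 1132 bp, and partners had 1.28 and 1.28. Runs joined at 10 kb held 7.0% and 10.7% of members, and at 1 Mb 56.7% and 53.7%. A *primpol* set of the same share of its list (357 peaks), chosen after seeing the data, had a width ratio of 2.30. No paired analysis was possible because the replicates of a genotype share a single list, and for the same reason no replicate could be left out. Gene and sequence alternatives were not run. Input depth differed between the lists, and counting error at a peak is unknown because heights are averages.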

Other observations

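Chromosomes 16 to 33 and W, which lie outside the sets, were treated in the same way where a chromosome had at least 20 peaks. Relative heights at or above the limit of the set were found for 37 of 2088 wild type peaks (1.77%, against 0.781% on chromosomes 1 to 15 and Z) and for 29 of 1664 *primpol* peaks (1.74%, against 0.657%). The highest were chr18:8607437-8608367 in wild type, with a relative height of 2.24, and chr26:5311269-5312292 in *primpol*, with 2.80.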
